A study of Mus musculus with 12 samples.

Results

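Histone acetyltransferases and bromodomain proteins write and read lysine acetylation, and 36 of their genes are described here in mouse medulloblastoma cells treated with the histone deacetylase inhibitor LBH589. The 36 genes were chosen by name: 10 acetyltransferases and 26 genes whose product carries a bromodomain or works as a bromodomain reader. All 36 were among the 22180 genes that could be named on the array, and all 36 passed the filter on dim genes.

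The cells are a mouse model of Group 3 medulloblastoma driven by Myc, and the study asked how LBH589 (panobinostat) affects their gene expression. The 3 tumours are labelled MP525, MP567 and MP570. Tumour cells from cerebella of NSG mice, an immunodeficient strain, were dissociated and plated in neurocult medium with a proliferation supplement. Cultures received 25 nM LBH589 or 0.00025% DMSO, the solvent, and were lysed after 6 or 12 h. There were 4 groups of 3 arrays, 12 in all, with 1 array per tumour in each group. Not given in the sources used here are the age of the mice, the genotype of the tumour cells and the number of animals behind a tumour. Nothing in the labels says that arrays of a tumour came from separate animals, so p-values measure only the spread between these 12 arrays.

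Acetyltransferases transfer an acetyl group from acetyl-coenzyme A to lysines of histone tails, and histone deacetylases remove it. Bromodomains are small folds that bind acetylated lysine and bring remodelling, transcription or further acetyltransferase complexes to that chromatin. Deacetylase inhibitors such as panobinostat raise histone acetylation and so act on the marks that these proteins write and read.

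The promoters of 4 genes are shown because their genes carry the contrasts described below: Brpf3 was lower and Baz2a higher under LBH589, and Smarca2 and Smarca4 are a pair of paralogs whose values moved in opposite directions. Each window holds the 250 bases before the RefSeq start of the gene on GRCm38.p6. Capitals mark matches on either strand to the GC box (GGGCGG) or the ETS motif (CCGGAAG).
Brpf3, chr17:28800876-28801125, + strand: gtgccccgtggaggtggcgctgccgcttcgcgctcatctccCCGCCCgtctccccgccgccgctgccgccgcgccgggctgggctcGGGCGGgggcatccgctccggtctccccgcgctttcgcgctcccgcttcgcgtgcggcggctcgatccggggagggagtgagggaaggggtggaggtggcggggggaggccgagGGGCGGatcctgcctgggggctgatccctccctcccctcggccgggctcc
Baz2a, chr10:128092533-128092782, + strand: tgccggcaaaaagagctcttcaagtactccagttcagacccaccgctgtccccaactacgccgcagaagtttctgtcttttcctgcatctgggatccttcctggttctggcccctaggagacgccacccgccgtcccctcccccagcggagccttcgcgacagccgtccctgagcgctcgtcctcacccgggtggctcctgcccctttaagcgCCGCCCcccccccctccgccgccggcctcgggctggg
Smarca2, chr19:26604910-26605159, + strand: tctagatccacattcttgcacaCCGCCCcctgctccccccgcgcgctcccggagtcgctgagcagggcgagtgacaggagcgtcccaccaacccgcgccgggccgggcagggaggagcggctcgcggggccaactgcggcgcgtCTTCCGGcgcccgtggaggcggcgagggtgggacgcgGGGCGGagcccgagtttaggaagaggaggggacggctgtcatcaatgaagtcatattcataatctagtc
Smarca4, chr9:21615919-21616168, + strand: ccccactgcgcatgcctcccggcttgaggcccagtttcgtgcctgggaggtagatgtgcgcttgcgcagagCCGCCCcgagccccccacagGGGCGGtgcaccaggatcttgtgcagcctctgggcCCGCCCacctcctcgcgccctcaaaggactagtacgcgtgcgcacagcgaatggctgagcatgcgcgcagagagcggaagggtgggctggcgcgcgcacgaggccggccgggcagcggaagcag

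The Brpf3 window held 34 CpG dinucleotides and 3 GC boxes, and the Baz2a window held 20 and 1. Smarca2 had 28 CpG dinucleotides, 2 GC boxes and 1 ETS motif. Its paralog Smarca4 had 25 CpG dinucleotides and 3 GC boxes. RefSeq windows were matched for 30 of the 36 members, 45 windows in all. A GC box was present in 60.0% of these windows and in 32.74% of all 32851 mouse windows of that length, and the median number of CpG dinucleotides was 22 against 6. The TATA box (TATAAA) was present in 2.2% of the members' windows against 12.37% of all, and the CCAAT box (CCAAT) in 26.7% against 33.85%. For the E-box (CACGTG) the shares were 11.1% and 6.02%, for the ETS motif 11.1% and 6.91%, and for the cyclic AMP response element (TGACGTCA) 4.4% and 1.55%. These matches describe letters in a window and were not tested as binding sites. Each of the 4 windows shown, whether its gene had higher or lower values under LBH589, held a GC box and more CpG dinucleotides than the median of all windows. The other members' windows were not split by direction of change.

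Most members were lower under LBH589. Values are log2 expression values, so a difference of -1 is a halving, and a gene was called at a limma adjusted p under 0.05 over all 18652 genes tested. At 6 h, 11 members fell and 1 rose, and over all genes 7.31% were called lower and 8.49% higher (15.8% either way). At 12 h, 16 members fell and 1 rose, against 9.07% of all genes called lower and 9.13% higher (18.2% either way). With both times averaged, 24 fell and 1 rose, against 14.4% and 15.7% (30.1% either way). The comparison over both times uses the same arrays as the others and is not independent of them. The one member that rose, in each comparison, was Baz2a. The members' median change was -0.42 at 6 h and -0.52 at 12 h, and the median over all genes tested was -0.02 and 0.01. Differences were negative for 30 of 36 members at 6 h and 33 of 36 at 12 h, and for 53.5% and 49.1% of all genes.

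These counts depended on how the tumours entered the fit and on which were present. With the tumour as a block, 26 members fell and 2 rose at 6 h, against 16.0% and 18.0% of all genes called lower and higher (34.0% either way). The same counts, 26 and 2, were found at 12 h, against 18.5% and 18.6% (37.1% either way). Over both times 28 fell and 3 rose, against 22.2% and 23.7% (45.9% either way). Without MP525 the members called numbered 5 at 6 h and 10 at 12 h, and the share of all genes called was then 5.46% and 9.02%. Without MP570 there were 7 at 6 h, 10 at 12 h and 16 over both times, against 4.71%, 6.78% and 17.7% of all genes. Of the 12 members called at 6 h, 8 stayed called when any 1 array was left out and 4 also without each tumour (Brpf3, Baz2a, Atad2b and Zmynd11). Of the 17 called at 12 h, 10 stayed called without any 1 array and 8 also without each tumour (Kat6b, Brpf3, Baz1a, Baz2a, Pbrm1, Atad2b, Phip and Zmynd11).

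**Figure D1:**
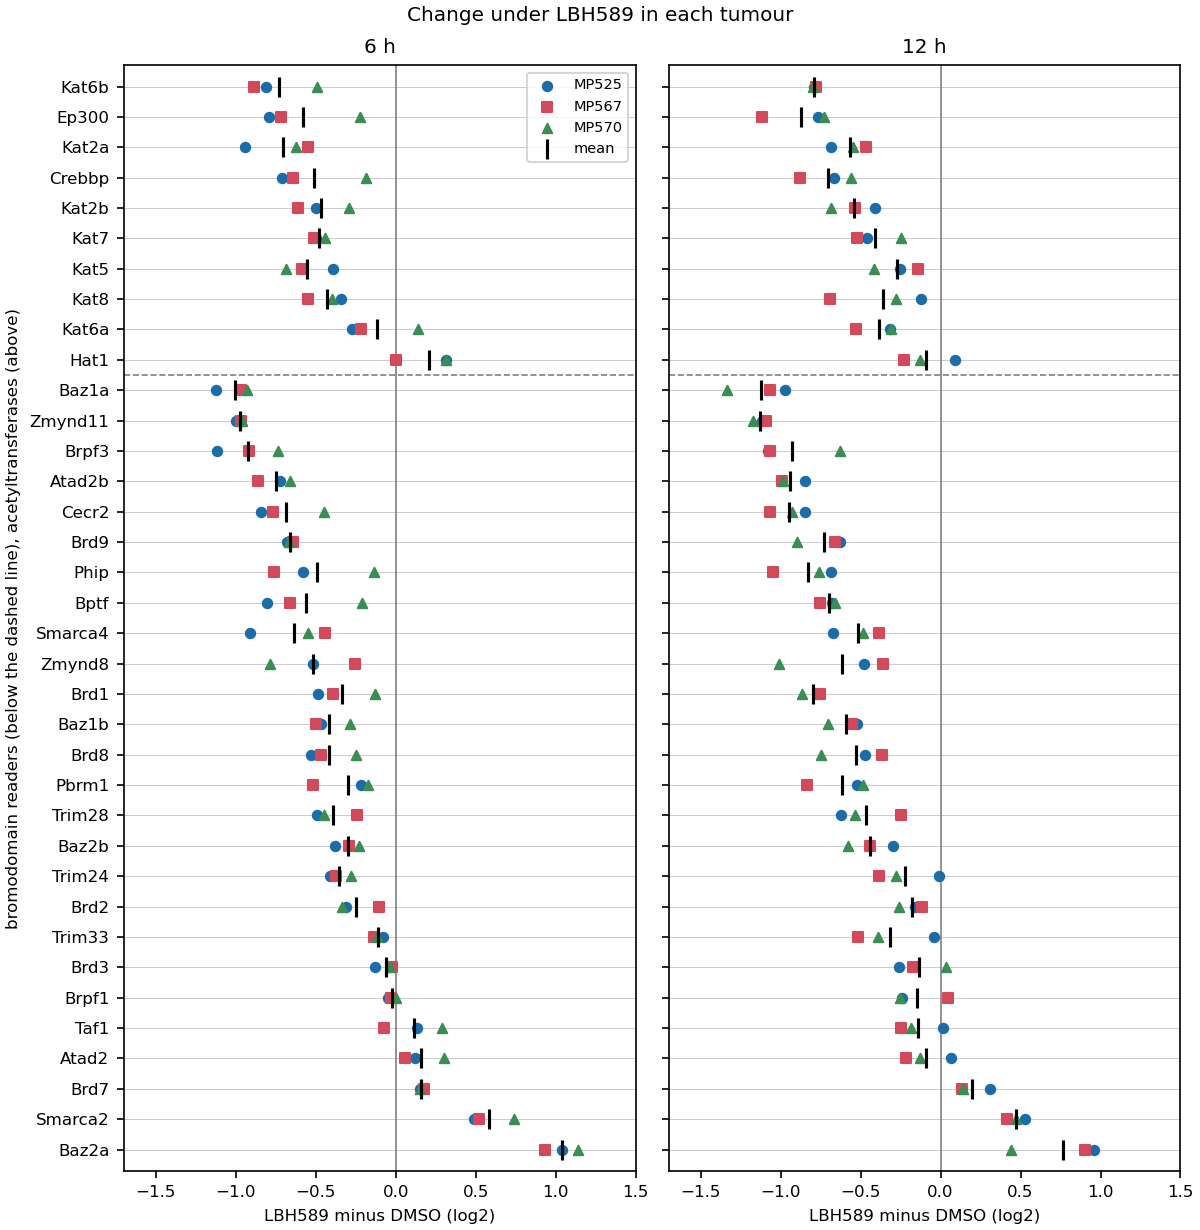
LBH589 minus DMSO (log2) for each of the 36 members at 6 h (left) and 12 h (right), with 1 point per tumour and a black bar at the mean of the 3 tumours; acetyltransferases lie above the dashed line and bromodomain readers below. Most points lie left of 0 at both times, while Baz2a, Smarca2 and Brd7 lie right of 0 in all 3 tumours at both times.

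Over the whole series, array medians lay between 7.10 and 7.21 and arrays correlated at 0.965 to 0.991. Among markers of Group 3 tumours and progenitors, Myc stood at the 62.2nd to 66.5th percentile of genes across arrays and the lineage factor Otx2 at the 25.9th to 54.0th. Npr3 stood at the 73.6th to 96.0th, Msi1 at the 77.0th to 91.5th and Prom1 at the 63.1st to 82.0th. Sox2 spanned the 30.3rd to 78.0th and Nes the 47.3rd to 80.0th. Of the 7 such markers, 2 fell at 6 h (Npr3 by 1.63 and Msi1 by 1.02). At 12 h 3 fell (Npr3 by 1.61, Msi1 by 1.04 and Prom1 by 0.98). Of all genes, 7.31% and 9.07% were called lower at these times. The list's mean level per array was 8.78 to 9.55 in DMSO at 6 h, 8.53 to 8.89 in LBH589 at 6 h, 8.86 to 9.51 in DMSO at 12 h and 8.65 to 9.11 in LBH589 at 12 h. Of 31 markers of microglia, astrocytes, oligodendrocytes, endothelial cells and fibroblasts on the array, 2 were called at each time, both higher (Cnp by 0.76 at 6 h and 1.02 at 12 h, Kdr by 0.81 and 0.71). Called higher among all genes were 8.49% at 6 h and 9.13% at 12 h. The mean levels of these 5 lists per array lay between 7.43 and 8.28 in DMSO at 6 h, 7.28 and 8.15 in LBH589 at 6 h, 7.27 and 8.53 in DMSO at 12 h, and 7.32 and 8.47 in LBH589 at 12 h. The median gene lay between 7.51 and 7.71 on each array. Mature neuron markers had mean levels of 8.25 to 8.86 and 8.39 to 8.92 in DMSO at 6 and 12 h and of 8.60 to 8.90 and 8.55 to 8.99 in LBH589, and of the 5 tested, Syt1 was higher at both times and Rbfox3 lower at 12 h. The part of these markers in the results was not tested. The arrays measure bulk RNA, in which fewer cells of a type and less RNA per cell cannot be told apart.

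CBP and p300, encoded by Crebbp and Ep300, are large coactivators that acetylate histone H3 lysine 27 at enhancers and carry a bromodomain of their own. Crebbp measured 11.86, 11.45 and 11.21 in the DMSO arrays at 6 h and 11.14, 10.80 and 11.02 in the LBH589 arrays, here and below in the order MP525, MP567 and MP570. In the 12 h cultures the values were 11.83, 11.62 and 11.64 in DMSO and 11.16, 10.74 and 11.08 in LBH589. The LBH589 arrays lay below all DMSO arrays at both times, and at 12 h Crebbp fell by 0.70 ± 0.17 (SE; 0.614 times the DMSO level; limma adjusted p = 0.0129). The 6 h difference of -0.51 ± 0.17 missed the threshold (adjusted p = 0.0583, or 0.00127 with the tumour block). The 12 h call ended without the DMSO array of MP525 (adjusted p = 0.0504), without MP567 (0.0789) or without MP570 (0.0818).

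Ep300 measured 11.22, 10.43 and 10.52 in DMSO at 6 h and 10.43, 9.71 and 10.30 in LBH589. The corresponding values at 12 h were 11.18, 10.59 and 10.84 in DMSO and 10.41, 9.47 and 10.11 in LBH589. The groups overlapped at 6 h and were separate at 12 h, and each tumour was lower under LBH589 at both times. Ep300 was called over both times only (-0.72 ± 0.20, limma adjusted p = 0.0173), and not at 6 h (-0.58 ± 0.29, adjusted p = 0.217) or 12 h (-0.87 ± 0.29, adjusted p = 0.0548). With the tumour block it was called at 6 h (0.000909) and at 12 h (2.98e-05), and without MP570 the call over both times ended (adjusted p = 0.100).

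Kat2a (GCN5) and Kat2b (PCAF) are the paralogous catalytic subunits of the SAGA and ATAC coactivator complexes and acetylate histone H3 lysine 9. Kat2a measured 11.30, 11.51 and 11.26 in DMSO at 6 h and 10.36, 10.97 and 10.63 in LBH589. At 12 h, DMSO arrays read 11.20, 11.50 and 11.25 and LBH589 arrays 10.51, 11.04 and 10.70. No LBH589 array reached a DMSO array, and Kat2a fell, with differences of -0.70 ± 0.17 at 6 h (limma adjusted p = 0.0171) and -0.57 ± 0.17 at 12 h (adjusted p = 0.0400). Its 6 h call was lost when the DMSO array of MP567 (0.0636) or the LBH589 array of MP570 (0.0557) or MP525 (0.0696) was left out, or all arrays of MP525 (0.128) or of MP570 (0.166). At 12 h it ended when any 1 of 8 arrays was left out (highest adjusted p = 0.133), all of them of MP525 or MP570 but for the DMSO 12 h array of MP567. It also ended without MP525 (0.141) or MP570 (0.237), and with arrays centred on their medians (0.0516) or on reference genes (0.155) or with quantile normalization (0.0803).

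Kat2b values were 7.88, 8.16 and 7.81 in DMSO at 6 h and 7.38, 7.55 and 7.51 in LBH589. Those at 12 h were 7.80, 8.24 and 7.93 in DMSO and 7.39, 7.71 and 7.24 in LBH589. The groups were separate at both times, as for Kat2a. Kat2b fell by 0.54 ± 0.15 at 12 h (limma adjusted p = 0.0261), while the difference of -0.47 ± 0.15 at 6 h missed the threshold (adjusted p = 0.0551, or 0.00202 with the tumour block). The 12 h call ended when 1 of 4 arrays of that time was left out, MP525 or MP570 under LBH589 or MP567 or MP570 under DMSO (highest adjusted p = 0.0984), and without MP525 (0.114) or MP570 (0.201), and with arrays centred on reference genes (0.128). Hat1, the type B enzyme that acetylates newly made histone H4 before its deposition, showed differences of 0.21 ± 0.09 at 6 h (limma adjusted p = 0.173) and -0.09 ± 0.09 at 12 h (adjusted p = 0.590). It was the only member with a second probe set, which gave 0.18 and -0.15. Hat1 was the only acetyltransferase with a positive difference at 6 h.

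The MYST family has 5 members. Kat6a (MOZ) and Kat6b (MORF) are paralogs that acetylate histone H3, Kat7 (HBO1) acetylates H3 lysine 14 and H4, Kat5 (TIP60) is the enzyme of the NuA4 complex, and Kat8 (MOF) acetylates H4 lysine 16. Kat6b measured 9.32, 9.34 and 9.35 in DMSO at 6 h and 8.51, 8.45 and 8.86 in LBH589. After 12 h the arrays read 9.35, 9.37 and 9.39 in DMSO and 8.56, 8.59 and 8.60 in LBH589. The 6 DMSO arrays were nearly alike, all above the 6 LBH589 arrays. Kat6b fell, with differences of -0.73 ± 0.12 at 6 h (limma adjusted p = 0.00173) and -0.79 ± 0.12 at 12 h (adjusted p = 0.000895), to 0.603 and 0.578 times the DMSO level. Only leaving out MP525 ended the 6 h call among single arrays and tumours (adjusted p = 0.0594), and none ended the 12 h call.

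Kat6a measured 10.52, 10.42 and 10.02 in DMSO at 6 h and 10.25, 10.21 and 10.16 in LBH589. At 12 h the values were 10.36, 10.57 and 10.23 in DMSO and 10.05, 10.04 and 9.92 in LBH589. The groups overlapped at 6 h and were separate at 12 h. Neither difference was called, at -0.12 ± 0.14 (95% interval -0.42 to 0.19, limma adjusted p = 0.669) and -0.38 ± 0.14 (-0.69 to -0.08, adjusted p = 0.0811), although the block called the second (0.00529). Whether Kat6a and Kat6b, or the other paralogs described here, differed in their change was not tested.

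Kat7 fell, with differences of -0.48 ± 0.10 at 6 h (limma adjusted p = 0.00776) and -0.41 ± 0.10 at 12 h (adjusted p = 0.0156). Its call ended at 6 h without MP525 (0.0771) or MP570 (0.0992), and at 12 h when MP525 under LBH589 (0.0513), MP567 under DMSO (0.0644) or all arrays of any 1 tumour (highest 0.105) were left out, or arrays were centred on reference genes (0.152). The NuA4 enzyme Kat5 fell by 0.56 ± 0.11 at 6 h (limma adjusted p = 0.00487), a call that ended without MP570 (0.115), and its 12 h difference was -0.27 ± 0.11 (adjusted p = 0.106, or 0.0281 with the tumour block). Kat8 was called over both times only (-0.40 ± 0.11, limma adjusted p = 0.0181), and not without MP567 or MP570 (highest 0.156) or with arrays centred on reference genes (0.0916). The block called it at 6 h (0.00375) and at 12 h (0.0101). All 5 MYST genes had negative differences at both times, where 53.5% (6 h) and 49.1% (12 h) of all genes did.

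The readers that sit in acetyltransferase complexes are Brd1, Brpf1 and Brpf3, scaffolds of the MYST enzymes Kat6a, Kat6b and Kat7, and Brd8, a subunit of NuA4. Brpf3 measured 8.49, 8.53 and 8.18 in DMSO at 6 h and 7.37, 7.61 and 7.45 in LBH589. It measured 8.36, 8.42 and 8.10 in DMSO at 12 h and 7.28, 7.35 and 7.47 in LBH589. The groups were more than 0.5 apart at each time. Brpf3 fell by 0.93 ± 0.13 at both 6 h (limma adjusted p = 0.000745) and 12 h (adjusted p = 0.000582), to 0.527 and 0.526 times the DMSO level, and kept both calls without each array and each tumour (highest adjusted p = 0.0423).

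Brd1 measured 9.71, 9.10 and 9.47 in DMSO at 6 h and 9.22, 8.71 and 9.34 in LBH589. The 12 h values were 9.56, 9.22 and 9.78 in DMSO and 8.79, 8.47 and 8.92 in LBH589. Overlap was seen at 6 h and none at 12 h. Brd1 fell by 0.80 ± 0.22 at 12 h (limma adjusted p = 0.0251), and its 6 h difference was -0.34 ± 0.22 (adjusted p = 0.365, or 0.0162 with the tumour block). Its 12 h call ended without the DMSO or LBH589 array of MP525, the LBH589 array of MP567 or the DMSO array of MP570 (highest 0.0955), and without MP525 or MP570 (highest 0.156). The NuA4 subunit Brd8 fell by 0.53 ± 0.14 at 12 h (limma adjusted p = 0.0252) and differed by -0.42 ± 0.14 at 6 h (adjusted p = 0.0742, or 0.00411 with the block). That 12 h call ended without the LBH589 array of MP525 or MP570 or the DMSO array of MP567 or MP570 (highest 0.0874), without MP525 (0.121) or MP570 (0.241), and with arrays centred on reference genes. Brpf1 was not called by either fit, with -0.03 ± 0.14 at 6 h (95% interval -0.34 to 0.28, limma adjusted p = 0.943) and -0.15 ± 0.14 at 12 h (-0.46 to 0.16, adjusted p = 0.540).

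The BET proteins Brd2 and Brd3 bind acetylated histones through paired bromodomains and promote transcriptional elongation, and Taf1 is the largest subunit of the general factor TFIID. Brd2 measured 10.43, 10.53 and 10.29 in DMSO at 6 h and 10.12, 10.42 and 9.95 in LBH589. After 12 h its values were 10.26, 10.35 and 10.11 in DMSO and 10.10, 10.23 and 9.85 in LBH589. Every tumour was lower under LBH589, and the groups overlapped at both times. The differences, -0.25 ± 0.15 at 6 h (95% interval -0.57 to 0.07, limma adjusted p = 0.304) and -0.18 ± 0.15 at 12 h (-0.50 to 0.14, adjusted p = 0.465), were not called, while the block called the first (0.0229).

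Brd3 measured 9.42, 9.85 and 9.52 in DMSO at 6 h and 9.29, 9.83 and 9.49 in LBH589. At 12 h the DMSO arrays gave 9.46, 9.83 and 9.46 and the LBH589 arrays 9.20, 9.65 and 9.49. The groups overlapped at both times. Neither fit called Brd3, whose differences were -0.06 ± 0.18 (95% interval -0.46 to 0.34, limma adjusted p = 0.881) and -0.13 ± 0.18 (-0.53 to 0.27, adjusted p = 0.691). Taf1 gave 0.12 ± 0.12 at 6 h (limma adjusted p = 0.606) and -0.14 ± 0.12 at 12 h (adjusted p = 0.490), and neither fit called it. None of these 3 genes was called without the block, and the intervals of Brd2 and Brd3 still include a fall of over 0.4.

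A group of 6 readers belongs to or is linked with the ISWI family of nucleosome-sliding remodellers. Baz1a (ACF1) and Baz1b (WSTF) partner the ATPase in the ACF and WICH complexes, Baz2a (TIP5) is the large subunit of the nucleolar complex NoRC that silences ribosomal DNA, Baz2b is its paralog, Bptf is the large subunit of NURF, and Cecr2 forms the CERF complex. Baz1a measured 10.53, 10.69 and 10.23 in DMSO at 6 h and 9.41, 9.71 and 9.30 in LBH589. The 12 h arrays gave 10.22, 10.55 and 10.24 in DMSO and 9.25, 9.49 and 8.91 in LBH589. The lowest DMSO array lay above the highest LBH589 array at each time. Baz1a fell, with differences of -1.01 ± 0.18 at 6 h (limma adjusted p = 0.00349) and -1.12 ± 0.18 at 12 h (adjusted p = 0.00161), to 0.498 and 0.459 times the DMSO level. The 6 h call ended without MP525 (0.0942), and the 12 h call held without each array and each tumour.

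Baz2a measured 9.94, 10.01 and 9.91 in DMSO at 6 h and 10.98, 10.94 and 11.05 in LBH589. In the 12 h cultures the values were 9.95, 10.04 and 10.26 in DMSO and 10.90, 10.94 and 10.70 in LBH589. All 6 LBH589 arrays lay above all 6 DMSO arrays. Baz2a rose by 1.04 ± 0.11 at 6 h (2.05-fold, limma adjusted p = 0.000195) and by 0.76 ± 0.11 at 12 h (1.70-fold, adjusted p = 0.000892), and kept both calls without each array and each tumour (highest adjusted p = 0.0376). The tumours' differences were 1.04, 0.93 and 1.14 at 6 h and 0.96, 0.90 and 0.44 at 12 h. At 12 h MP570 had the highest of the DMSO arrays and the lowest of the LBH589 arrays.

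Its paralog Baz2b measured 9.21, 9.11 and 9.31 in DMSO at 6 h and 8.83, 8.81 and 9.07 in LBH589. The values at 12 h were 9.04, 9.15 and 9.57 in DMSO and 8.74, 8.71 and 8.99 in LBH589. The pair moved in opposite directions, with separate groups at both times. Baz2b was called over both times (-0.37 ± 0.11, limma adjusted p = 0.0218) but at neither time alone (-0.30 ± 0.15, adjusted p = 0.230, and -0.44 ± 0.15, adjusted p = 0.0685). The block called it at 6 h (0.0212) and 12 h (0.00179). The call over both times ended without the LBH589 6 h array of MP525 or MP567 or the DMSO 6 h array of MP570, without MP525 or MP567 (highest 0.107), and with arrays centred on reference genes.

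Cecr2 measured 10.15, 10.20 and 9.68 in DMSO at 6 h and 9.31, 9.44 and 9.24 in LBH589. At 12 h the values were 10.09, 10.43 and 9.95 in DMSO and 9.24, 9.36 and 9.02 in LBH589. Every LBH589 array lay below every DMSO array of its time. Cecr2 fell, with differences of -0.69 ± 0.17 at 6 h (limma adjusted p = 0.0185) and -0.95 ± 0.17 at 12 h (adjusted p = 0.00283). At 6 h the call was lost if 1 of 4 arrays was left out, MP525 or MP567 under DMSO or MP525 or MP570 under LBH589 (highest 0.0701), or all of MP525 (0.217) or MP567 (0.0577), and at 12 h without MP525 (0.0515). Baz1b fell by 0.59 ± 0.15 at 12 h (limma adjusted p = 0.0150) and differed by -0.42 ± 0.15 at 6 h (adjusted p = 0.0756, or 0.000343 with the block). Its 12 h call ended without the DMSO array of MP567 (0.0567), the LBH589 array of MP570 (0.0613) or MP525 (0.117). Bptf was called over both times only (-0.63 ± 0.17, limma adjusted p = 0.0146), a call that ended without MP525 or MP570 (highest 0.0890), and the block called it at 6 h (0.000898) and 12 h (0.000142).

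Smarca4 (BRG1) and Smarca2 (BRM) are the alternative ATPases of the SWI/SNF remodellers, and Brd7, Brd9 and Pbrm1 mark particular forms of that complex. Smarca4 measured 11.80, 12.11 and 11.91 in DMSO at 6 h and 10.89, 11.67 and 11.37 in LBH589. After 12 h the arrays read 11.78, 12.21 and 11.98 in DMSO and 11.10, 11.82 and 11.50 in LBH589. The groups were separate at 6 h and overlapped at 12 h, where the DMSO array of MP525 lay below the LBH589 array of MP567. Smarca4 was called over both times (-0.57 ± 0.15, limma adjusted p = 0.0122), and not at 6 h (-0.63 ± 0.21, adjusted p = 0.0648) or 12 h (-0.51 ± 0.21, adjusted p = 0.121). The block called it at 6 h (5.18e-05) and 12 h (0.000251), and leaving out MP570 ended the call over both times (0.123).

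Smarca2 measured 9.10, 8.26 and 8.89 in DMSO at 6 h and 9.59, 8.78 and 9.63 in LBH589. After 12 h its values were 9.08, 8.43 and 8.96 in DMSO and 9.61, 8.85 and 9.43 in LBH589. Each tumour was higher under LBH589 at both times, and the groups overlapped because MP567 was lower than the other tumours in every group. Smarca2 was not called without the block, at 0.58 ± 0.30 (limma adjusted p = 0.232) and 0.47 ± 0.30 (adjusted p = 0.327), or over both times (0.53 ± 0.21, adjusted p = 0.0827). With the tumour as a block it was called higher at 6 h (0.000181) and 12 h (0.000856).

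Brd9, a subunit of the non-canonical form of SWI/SNF, measured 9.71, 9.92 and 10.14 in DMSO at 6 h and 9.03, 9.28 and 9.47 in LBH589. It measured 9.57, 9.84 and 10.002 in DMSO at 12 h and 8.94, 9.17 and 9.10 in LBH589. The 3 tumours kept nearly the same distance between DMSO and LBH589 at 6 h. Brd9 fell, with differences of -0.66 ± 0.16 at 6 h (limma adjusted p = 0.0167) and -0.73 ± 0.16 at 12 h (adjusted p = 0.00898). The 6 h call was lost without MP525 in the LBH589 group (0.0713), MP570 in the DMSO group (0.0644) or any whole tumour (highest 0.102), and the 12 h call without MP567 (0.0652) or MP570 (0.0869). Both also ended with arrays centred on reference genes. Pbrm1, of the PBAF form, fell by 0.61 ± 0.11 at 12 h (limma adjusted p = 0.00230), a call kept without each array and each tumour, and differed by -0.30 ± 0.11 at 6 h (adjusted p = 0.0793, or 0.0172 with the block). Brd7, also of PBAF, gave 0.16 ± 0.11 (limma adjusted p = 0.412) and 0.20 ± 0.11 (adjusted p = 0.270), and was called higher only over both times with the block (0.0124).

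The other readers include the ATPases Atad2 and Atad2b, the TRIM corepressors Trim24, Trim28 and Trim33, the ubiquitin ligase receptor Phip, and Zmynd8 and Zmynd11, which read modified histone tails. Zmynd11, known for binding histone H3.3 with methylated lysine 36, measured 10.76, 10.72 and 10.59 in DMSO at 6 h and 9.75, 9.76 and 9.63 in LBH589. The 12 h arrays gave 10.69, 10.76 and 10.73 in DMSO and 9.57, 9.67 and 9.56 in LBH589. Tumours differed little and the groups were far apart. Zmynd11 fell, with differences of -0.98 ± 0.10 at 6 h (limma adjusted p = 0.000141) and -1.13 ± 0.10 at 12 h (adjusted p = 4.76e-05), to 0.508 and 0.458 times the DMSO level. Both calls held without each array and each tumour (highest adjusted p = 0.0178).

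Atad2b measured 10.55, 10.47 and 10.27 in DMSO at 6 h and 9.82, 9.61 and 9.61 in LBH589. In the 12 h cultures the values were 10.51, 10.58 and 10.38 in DMSO and 9.66, 9.59 and 9.40 in LBH589. The groups were separate at both times. Atad2b fell, with differences of -0.75 ± 0.12 at 6 h (limma adjusted p = 0.00203) and -0.94 ± 0.12 at 12 h (adjusted p = 0.000465), and kept both calls without each array and each tumour (highest adjusted p = 0.0373).

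Its paralog Atad2, a coactivator often high in dividing tumour cells, measured 10.45, 9.80 and 10.23 in DMSO at 6 h and 10.57, 9.86 and 10.53 in LBH589. At 12 h its values were 10.48, 9.89 and 10.26 in DMSO and 10.54, 9.67 and 10.13 in LBH589. The groups overlapped at both times, and MP567 was lowest in all 4. Neither fit called Atad2, with 0.16 ± 0.27 at 6 h (95% interval -0.42 to 0.74, limma adjusted p = 0.777) and -0.09 ± 0.27 at 12 h (-0.68 to 0.49, adjusted p = 0.861).

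Phip measured 10.52, 10.64 and 10.14 in DMSO at 6 h and 9.94, 9.88 and 10.01 in LBH589. After 12 h the arrays read 10.49, 10.84 and 10.59 in DMSO and 9.81, 9.79 and 9.83 in LBH589. The gap between the groups was narrow at 6 h, where the MP570 arrays nearly met, and wide at 12 h. Phip fell, with differences of -0.49 ± 0.14 at 6 h (limma adjusted p = 0.0335) and -0.83 ± 0.14 at 12 h (adjusted p = 0.00194). The 6 h call ended when any 1 of the 6 h arrays except the DMSO array of MP570 was left out (highest 0.127), without each tumour (highest 0.239), and with arrays centred on reference genes; the 12 h call held without each array and each tumour.

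Trim28 (KAP1), the corepressor of KRAB zinc finger proteins, was called over both times (-0.43 ± 0.13, limma adjusted p = 0.0222) and at neither time alone, and the block called it at 6 h (0.00106) and 12 h (0.000247). Trim24 was likewise called over both times (-0.29 ± 0.09, limma adjusted p = 0.0329), and with the block at 6 h (0.00542) but not 12 h (0.0565). Both calls were fragile: that of Trim28 ended when any 1 of 6 arrays was left out, all except the DMSO arrays of MP525 and MP570 and the LBH589 arrays of MP567, and without MP525 or MP570 (highest 0.184). That of Trim24 ended when any 1 of 8 arrays was left out, all except the DMSO 6 h array of MP567 and the LBH589 6 h arrays of MP525 and MP570 and the LBH589 12 h array of MP525, and without each tumour (highest 0.192). Centring on reference genes ended both calls (0.0898 for Trim28 and 0.0684 for Trim24). Trim33, linked to TGF-beta signalling, gave -0.11 ± 0.12 at 6 h (limma adjusted p = 0.617) and -0.32 ± 0.12 at 12 h (adjusted p = 0.0859, or 0.0110 with the block). Zmynd8 gave -0.52 ± 0.33 (limma adjusted p = 0.364) and -0.62 ± 0.33 (adjusted p = 0.245), and the block called it at 6 h (0.00814) and 12 h (0.00232). The tumours lay further apart for Zmynd8 than for any other member.

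**Figure D2:**
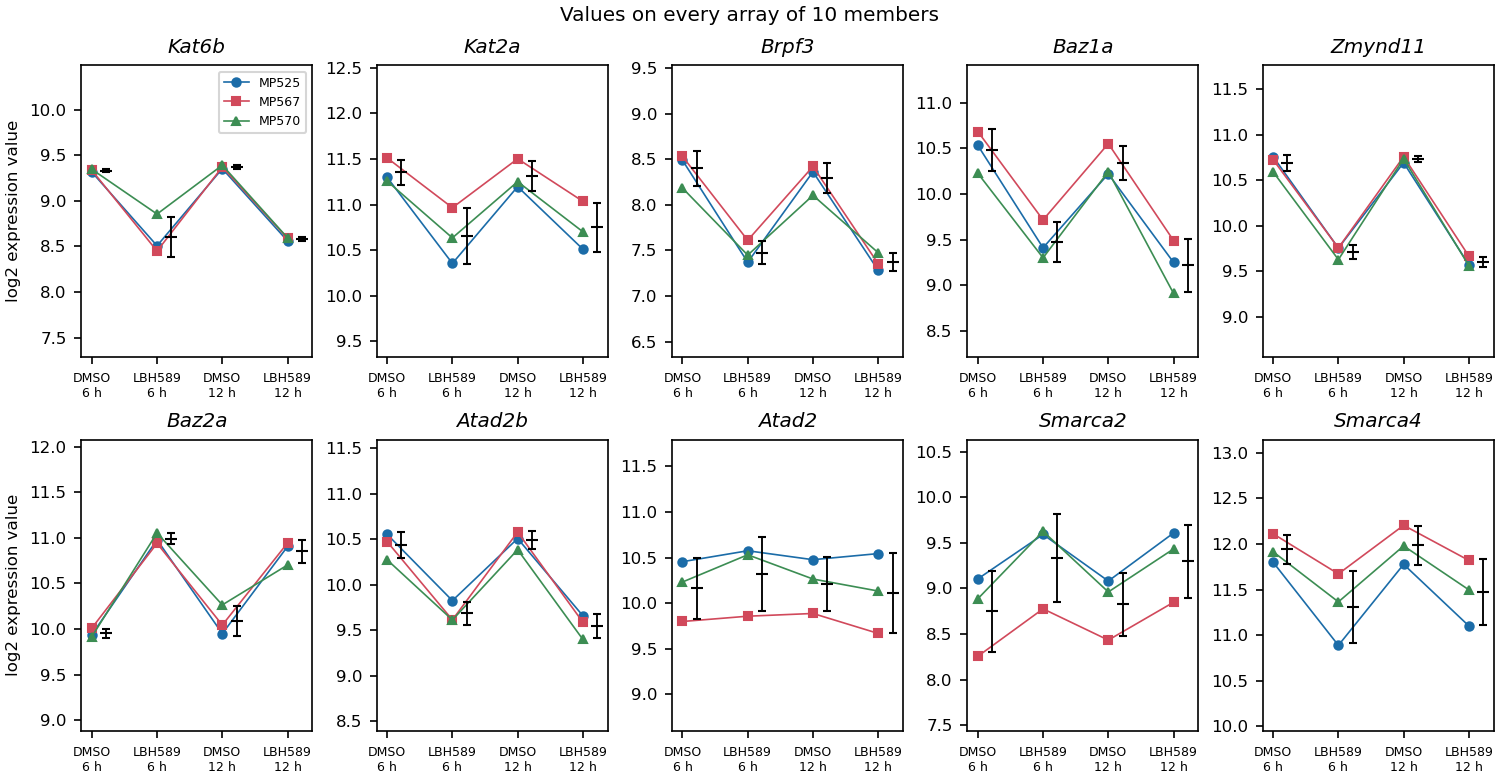
Log2 expression values on all 12 arrays for 10 members, with lines joining the arrays of a tumour across the 4 groups and black marks showing the group mean ± SD (n = 3); each panel spans the same number of log2 units. Kat6b, Brpf3, Baz1a, Zmynd11 and Atad2b step down under LBH589 at both times, Baz2a steps up, and in Smarca2 and Atad2 the tumours differ by more than the groups.

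Both the acetyltransferases and the bromodomain readers had negative median changes at both times. Among the 10 acetyltransferases, 4 fell at 6 h, 5 at 12 h and 8 over both times (with the block 8, 9 and 9 fell). Among the 26 readers, 7, 11 and 16 fell and 1 rose each time (with the block 18, 17 and 19 fell and 2, 2 and 3 rose). Of all genes, 7.31%, 9.07% and 14.4% were called lower and 8.49%, 9.13% and 15.7% higher. With the block, 16.0%, 18.5% and 22.2% of all genes were called lower and 18.0%, 18.6% and 23.7% higher. The acetyltransferases' median change was -0.50 at 6 h and -0.48 at 12 h, and that of the readers -0.37 and -0.52. By tumour at 6 h, the medians of the acetyltransferases were -0.50, -0.57 and -0.34 and those of the readers -0.48, -0.38 and -0.24. The acetyltransferases had the lower median in all 3 tumours at that time, by 0.10 on average (difference -0.10 ± 0.08, SD, n = 3). At 12 h the tumour medians were -0.44, -0.53 and -0.48 for the acetyltransferases and -0.50, -0.41 and -0.56 for the readers. The difference was then 0.01 ± 0.11 (SD, n = 3), positive in 2 tumours and negative in MP567. The difference between the class medians of the fitted changes was -0.12 at 6 h and 0.05 at 12 h, and the second turned to -0.019 without the DMSO 12 h array of MP570 and to -0.053 without that tumour. With the 4 enzymes that carry a bromodomain counted as readers, a choice made after seeing the data, the difference was -0.040 at 6 h and 0.18 at 12 h. No test of a difference between the classes was made. The readers spanned the wider range, from -1.01 to 1.04 at 6 h and from -1.13 to 0.76 at 12 h, against -0.73 to 0.21 and -0.87 to -0.09 for the acetyltransferases.

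The role groups within the readers were counted apart, and no test compared them. Over both times 5 of 6 ISWI-linked readers fell and 1 rose, 3 of 4 acetyltransferase partners fell, 3 of 5 SWI/SNF readers fell, and 5 of 8 other readers fell. Among all genes, 14.4% were called lower and 15.7% higher. None of the 3 BET and TFIID genes was called over both times, where 30.1% of all genes were. At an unadjusted p under 0.05, 0 of the 3 passed in limma without the block, against 39.2% of all genes. With the block 1 passed, and the share of all genes with it is not given here. The median changes over both times were -0.57 for the ISWI-linked group, -0.52 for the acetyltransferase partners, -0.46 for SWI/SNF and -0.10 for BET and TFIID.

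**Figure D3:**
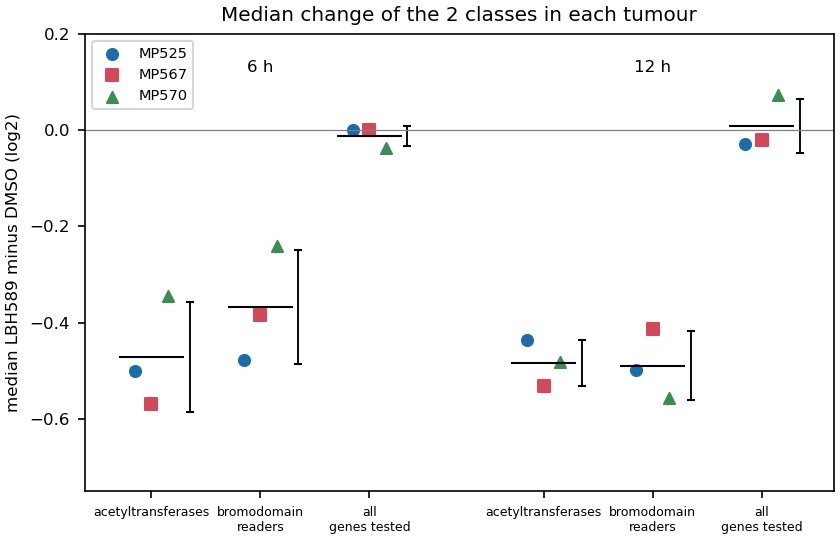
Median LBH589 minus DMSO (log2) over the 10 acetyltransferases, the 26 bromodomain readers and all 18652 genes tested, at 6 and 12 h, with 1 point per tumour, a line at the mean and a bar for the SD (n = 3). Both classes lie below 0 in all 3 tumours at both times, and at 12 h their order differs between tumours.

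The members' response was already present at 6 h. Of the 12 called at 6 h and the 17 called at 12 h, 11 were called at both: Kat2a, Kat6b, Kat7, Brpf3, Baz1a, Baz2a, Cecr2, Brd9, Atad2b, Phip and Zmynd11. The 2 times use different arrays of the same tumours. Kat5 was called at 6 h alone, and Crebbp, Kat2b, Brd1, Brd8, Baz1b and Pbrm1 at 12 h alone. The test of the difference between the LBH589 effects at 12 and 6 h called 0 members in limma, without the block (0.00% of all genes) and with it (0.0107%). At an unadjusted p under 0.05, 1 member passed without the block, near the 2.63% of all genes that did, and 4 passed with it. The share of all genes passing at this level with the block is not given here, so the 4 cannot be set beside 2.63%. The largest of these differences was that of Brd1, -0.46, and the members' median was -0.12, against 0.00 for all genes.

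Within LBH589, 27 of 36 members were lower at 12 than at 6 h, as were 46.9% of all genes. The members' median was -0.11, against 0.01 for all genes. Limma called 0 members (0.00% of all genes). With the block it also called 0 members, against 1.99% of all genes, 0.724% higher and 1.27% lower. At an unadjusted p under 0.05, 1 member passed without the block, against 7.59% of all genes, and 9 passed with it. The 9 cannot be set beside 7.59%, because the share of all genes with the block is not given here. Within DMSO, 13 of 36 members were lower at 12 h, as were 48.8% of all genes. Their median was 0.04, against 0.003 for all genes. Limma called 0 members (0.0214% of all genes). With the block it again called 0 members, against 0.311% of all genes, 0.220% higher and 0.0911% lower. At an unadjusted p under 0.05, 0 passed without the block, against 2.21% of all genes. With the block 1 passed, and the share of all genes with it is not given here. The comparison between times in DMSO shares its arrays with the LBH589 effects.

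The tumours differed in the level of many members. A limma F-test of the 3 tumours, with the group in the model, called 20 members, 5 acetyltransferases and 15 readers, against 37.4% of all genes. The number was 8 without MP567, and 16 and 15 without MP525 and MP570. The share of all genes called in those 3 fits is not given here. Over its 4 arrays Zmynd8 averaged 9.30, 9.43 and 10.12 in MP525, MP567 and MP570 (limma adjusted p = 0.000191). MP570 was highest there, and for the next members MP567 was the lowest or the highest tumour. Smarca2 averaged 9.35, 8.58 and 9.23 (limma adjusted p = 1.06e-05), and Atad2 10.51, 9.80 and 10.29 (adjusted p = 2.43e-05). Ep300 averaged 10.81, 10.05 and 10.44 (limma adjusted p = 0.000113). In all 3 MP567 was lowest. Bptf averaged 9.86, 10.46 and 10.06 (limma adjusted p = 0.000505) and Smarca4 11.39, 11.95 and 11.69 (adjusted p = 0.000154), with MP567 highest. The ATPases Smarca2 and Smarca4 were thus ordered in opposite ways across the tumours, MP567 being lowest for the first and highest for the second. Pairs of tumours were not tested apart.

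Of the 20 called members, 12 were highest and 6 lowest in MP567, 4 and 9 in MP525, and 4 and 5 in MP570. Of all genes called, 35.4% were highest and 40.3% lowest in MP567, 28.3% and 35.6% in MP525, and 36.3% and 24.1% in MP570. Brpf3, Zmynd11, Kat6b and Baz2a were not among the 20, with tumour means within 0.18, 0.10, 0.11 and 0.04 of each other. The LBH589 effect itself was called different between tumours for 0 members in a limma F-test, against 1.06% of all genes, and 6 of 36 passed at an unadjusted p under 0.05, near the 14.2% of all genes that did. These tests rest on cultures of 3 tumours and speak only of those.

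**Figure D4:**
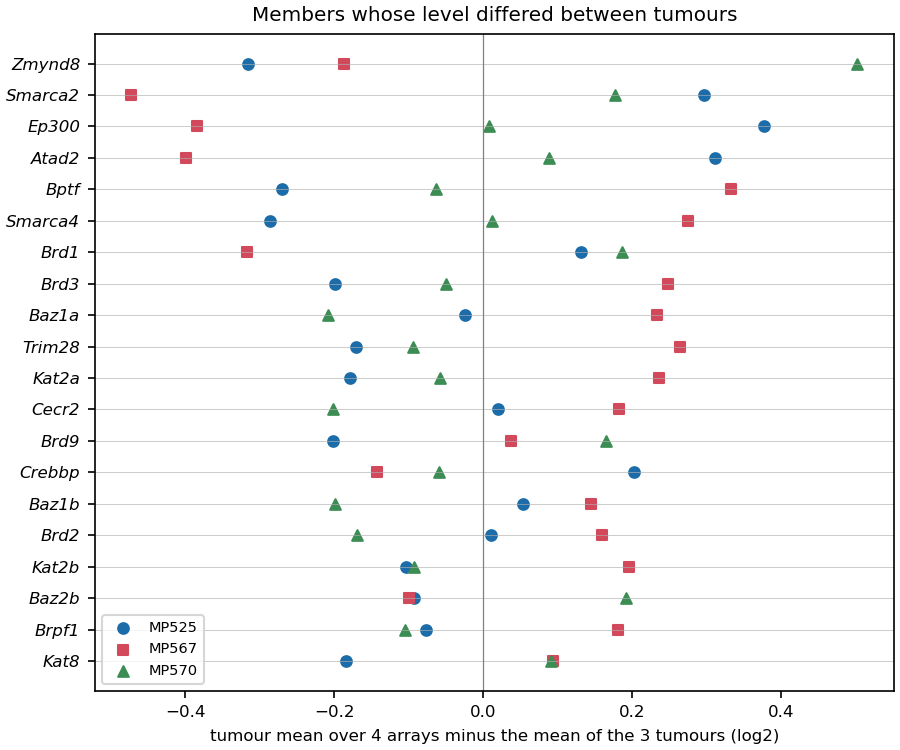
Mean over the 4 arrays of each tumour minus the mean of the 3 tumours (log2) for the 20 members whose level was called different between tumours, ordered by the distance between the highest and lowest tumour. Zmynd8, Smarca2, Ep300 and Atad2 spread over more than 0.7, and MP567 is the highest tumour for 12 members and the lowest for 6.

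Genes that work with the members were counted from lists. Of 33 tested subunits of acetyltransferase complexes that are not members, 15 fell at 6 h and 14 at 12 h (with the block 22 fell and 1 rose at 6 h, and 20 fell at 12 h). The shares of all genes called lower were 7.31% at 6 h and 9.07% at 12 h, or 16.0% and 18.5% with the block. With the block 18.0% were called higher at 6 h. The subunits' median change was -0.39 and -0.42, against -0.02 and 0.01 for all genes. The count of falls at 6 h was 9 without the DMSO or the LBH589 array of MP525, 6 without that tumour and 4 without MP570. All genes called either way were then 11.2%, 10.3%, 5.46% and 4.71%. At 12 h the count was 7 without MP525, 6 without MP570 and 9 with arrays centred on reference genes. All genes called either way were 9.02%, 6.78% and 17.3% in these settings. Epc2, a scaffold of NuA4, fell at 6 h (-1.5 ± 0.16, limma adjusted p = 0.000168) and at 12 h (-1.30 ± 0.16, adjusted p = 0.000301). Ing5, a subunit of Kat6a, Kat6b and Kat7 complexes, fell, with differences of -1.33 ± 0.17 and -1.46 ± 0.17 (limma adjusted p = 0.000617 and 0.000295). Meaf6, shared by these complexes and NuA4, fell, with differences of -1.06 ± 0.14 and -1.11 ± 0.14 (limma adjusted p = 0.000692 and 0.000419). These 3 kept their calls without each array and each tumour. Mcrs1, a subunit of the Kat8-containing NSL complex, fell by 1.05 ± 0.28 at 6 h (limma adjusted p = 0.0253), a call that ended without the DMSO or LBH589 array of MP525, the LBH589 array of MP567 or the DMSO array of MP570 (highest 0.0919), and without MP525 or MP570 (highest 0.236). Msl1, the scaffold of the other Kat8 complex, fell by 1.10 ± 0.26 at 12 h (limma adjusted p = 0.0121), but not without MP525 or MP570 (highest 0.154).

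Of 17 tested SWI/SNF and ISWI subunits that are not members, 3 fell and 2 rose at 6 h and 5 fell and 3 rose at 12 h (with the block 10 and 4, then 12 and 4). Over all genes, 7.31% were called lower and 8.49% higher at 6 h, and 9.07% and 9.13% at 12 h. With the block these shares were 16.0% and 18.0% at 6 h, and 18.5% and 18.6% at 12 h. Without MP570 the falls numbered 0 at 6 h and 1 at 12 h. Without MP525 they numbered 1 and 3, and the rises 1 and 1. All genes called either way were 4.71% and 6.78% without MP570 and 5.46% and 9.02% without MP525. Dpf3, a subunit of the neural and muscle forms of SWI/SNF, rose at 6 h (1.44 ± 0.19, limma adjusted p = 0.000669) and at 12 h (1.18 ± 0.19, adjusted p = 0.00168), in every setting that left out an array or a tumour. Dpf1, a neuron-specific subunit, rose by 0.57 ± 0.15 and by 0.56 ± 0.15 (limma adjusted p = 0.0256 and 0.0258), calls that ended at each time when MP525 under DMSO, MP567 under either agent or MP570 under LBH589 was left out, and without each tumour (highest 0.195), the 6 h call also with arrays centred on reference genes (0.0544). Actl6b, the neuronal actin-like subunit, rose by 0.85 ± 0.25 at 12 h (limma adjusted p = 0.0321), and not without the DMSO array of any 1 tumour or the LBH589 array of MP570 (highest 0.119), or without MP525 or MP567 (highest 0.142). Of the 5 mature neuron markers tested, Syt1 was also higher at both times (0.54 and 0.78), Rbfox3 was lower at 12 h (-0.72) and Snap25, Slc17a7 and Gad1 were not called, and the part of neuronal content in these values was not tested. Smarce1, a core subunit, fell, with differences of -0.68 ± 0.14 and -0.93 ± 0.14 (limma adjusted p = 0.00780 and 0.00117), and at 6 h not without MP567 or MP570 (highest 0.0765).

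Among 8 other acetyltransferases and coactivators, 2 fell and 1 rose at 6 h and 2 fell at 12 h (with the block 2 and 1, then 3 and 1). For this list and those below, the shares of all genes were 7.31% lower and 8.49% higher at 6 h. They were 9.07% and 9.13% at 12 h. With the block they were 16.0% and 18.0% at 6 h, and 18.5% and 18.6% at 12 h. Counts in lists of 4 to 8 genes were not tested against these shares. Ncoa2, a nuclear receptor coactivator, fell, with differences of -0.63 ± 0.11 and -0.65 ± 0.11 (limma adjusted p = 0.00315 and 0.00225), the first call ending without MP525 (0.0835). Its relative Ncoa3 rose by 0.49 ± 0.10 at 6 h (limma adjusted p = 0.00879), which ended without MP525 or MP570 (highest 0.158). Mcm3ap, an export factor with an acetyltransferase domain, fell, with differences of -0.63 ± 0.14 and -0.73 ± 0.14 (limma adjusted p = 0.00879 and 0.00352), and its calls ended without MP570 (highest 0.0787), the first also without MP525 (0.0843). Among 6 other bromodomain genes 1 fell at 6 h and 2 at 12 h, namely Sp100, a nuclear body protein (-0.36 ± 0.10 and -0.39 ± 0.10), and Brwd1 (-0.68 ± 0.21 at 12 h) (limma adjusted p = 0.0362, 0.0236 and 0.0456). The Sp100 calls ended without each tumour (highest 0.233) and with arrays centred on reference genes (highest 0.104), at 6 h also without any 1 of the 6 h arrays of MP525 or MP570 and at 12 h when MP570 under LBH589 or either MP525 or MP567 under DMSO was left out. The Brwd1 call ended without MP525 or MP570 (highest 0.276) and when any 1 of 7 arrays was left out (highest 0.152), all but 1 of them of those tumours, and with arrays centred on their medians or on reference genes or with quantile normalization (highest 0.139). Among 4 readers of acetylation through the YEATS domain, 1 fell at each time, Yeats4, shared with NuA4, which differed by -1.0 ± 0.20 at 6 h (limma adjusted p = 0.00616, and 0.0985 without MP570) and by -0.66 ± 0.20 at 12 h (adjusted p = 0.0399, lost without each tumour and when any 1 of 7 arrays was left out, highest 0.216, and under those 3 scalings, highest 0.134). With the block 2 of the 6 bromodomain genes and 2 of the 4 YEATS readers fell at each time. The block thus also called Brwd1 at 6 h (-0.42, limma adjusted p = 0.00411).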

How the data were processed

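Total RNA of 12 cultures was labelled with biotin by a GeneChip WT kit, per the labels, and measured with 1 array each. The authors deposited 1 log2 expression value for each probe set and array. The submitters' processing notes list Agilent Feature Extraction 10.7.3.1, although these are not Agilent arrays. Summarisation and normalization were not given in the sources used here, and none was added. Of 41345 probe sets, 23521 name 1 gene, 1814 name several and were not used, and 16010 are not listed in the annotation. A gene took the probe set with the highest mean, and genes above the array's 25th percentile on at least 3 arrays were tested, 18652 of 22180. Names and promoters are RefSeq's (GRCm38.p6).

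Group means were fitted with limma 3.58.1 in R 4.3.3 (eBayes with trend). Two-sided p-values were adjusted by Benjamini-Hochberg over all genes tested, and errors are standard errors unless marked SD. Precision is limited by the number of arrays. The labels give each tumour 1 array per group, so arrays pair by tumour: deviations from group means correlated at 0.450 to 0.805 in 18 same-tumour pairs and at -0.51 to -0.0577 in 36 pairs of another tumour and group. Blocked values are given where they change a call. The steps were tested on simulated data.

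The members and lists were chosen with earlier results of these data known. Values on every array are given for the 12 largest changes among members called in the same direction in all 3 tumours and for 7 paralog pairs. Of each other list up to 4 called genes per time are named. Alternatives were the tumour as a block, other scalings and filters, the mean of probe sets, and leaving out each array or tumour.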

Additional observations from a re-analysis of the deposited data

How the results depend on the processing

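With the tumour as a fixed replicate block the members called numbered 28 at 6 h and 28 at 12 h, and with it as a random replicate block 25 and 28. All genes called were 34.0% and 37.1% with the fixed block and 29.4% and 32.6% with the random block. The block ended none of the members' calls. Leaving out single arrays or tumours gave 5 to 15 members at 6 h, 10 to 18 at 12 h and 16 to 25 over both times, and 8 to 21 for levels between tumours. The share of all genes called moved as well, from 4.71% to 16.1% at 6 h, 6.78% to 18.1% at 12 h and 17.7% to 28.4% over both times. For levels between tumours it is not given here. Other scalings, filters and the mean of probe sets gave 11 to 14, 12 to 18 and 23 to 25 members. All genes called were then 12.6% to 22.8%, 14.7% to 25.7% and 24.7% to 39.7%. Centring on reference genes moved the median of all genes at 12 h from 0.01 to 0.11, with 10 members lower and 1 higher at 6 h, 11 and 1 at 12 h, and 20 and 3 over both times. All genes called either way were 13.1%, 17.3% and 28.1% in that setting. This centring also turned the uncalled 12 h differences of Hat1 to 0.017 and of Atad2 to 0.011. Of 72 member values at the 2 times, it ended 7 calls. With Kat2a, Kat2b, Crebbp and Ep300, which carry a bromodomain, counted as readers, the difference between the class medians was -0.040 at 6 h and 0.18 at 12 h, a choice made after seeing the data. Leaving out arrays or tumours moved the 12 h class difference from -0.053 to 0.13, and the uncalled differences of Atad2 from -0.022 to 0.39 at 6 h and from -0.31 to 0.13 at 12 h, of Brpf1 from -0.092 to 0.042 at 6 h and of Brd3 from -0.21 to 0.061 at 6 h. The cause of these shifts was not tested. With 3 arrays a group, a change that misses the threshold is not shown to be absent.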

Other observations

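The MYST enzymes Kat6a, Kat6b and Kat7 share some of their partners, and the products of 12 genes measured here form their complexes. These 12 were set together after their values were seen. Besides Kat6b, Kat7, Brpf3, Ing5 and Meaf6, described above as lower at both times, the scaffold Jade3 fell at 6 h (-0.74 ± 0.15, limma adjusted p = 0.00565) and at 12 h (-1.02 ± 0.15, adjusted p = 0.000825). Its 6 h call ended without MP525 (0.0903) or MP570 (0.0667). Jade1 fell, with differences of -0.83 ± 0.21 and -0.71 ± 0.21 (limma adjusted p = 0.0200 and 0.0361), calls that ended when MP525 under either agent, MP567 under DMSO or MP570 under LBH589 was left out at that time (highest 0.134), and without MP525 or MP570 (highest 0.236), the second also with arrays centred on reference genes (0.0959) or quantile normalization (0.0536). Jade2 gave -0.29 ± 0.14 and -0.26 ± 0.14 (limma adjusted p = 0.185 and 0.221), with the tumour block calling the first (0.0352). The paralogs Ing4 and Ing5 differed in their values, with -0.24 ± 0.22 and -0.09 ± 0.22 for Ing4 (limma adjusted p = 0.553 and 0.841), and the difference between them was not tested. All 12 genes had negative mean differences at both times, as did 53.5% of all genes at 6 h and 49.1% at 12 h. Because the 12 were chosen with their values known, their common sign is not a test. Kat6a, Brpf1, Ing4 and Jade2 were called at neither time without the block.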
